A study of Mus musculus with 6 samples.

Results

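Wnt signalling in cultured mouse fibroblasts was followed here through 10 genes, chosen by name with earlier results of these data known. They were the Wnt ligands Wnt5a, Wnt5b and Wnt11, the receptor Fzd2, and the secreted antagonists Sfrp1, Sfrp2, Dkk2 and Dkk3. The nuclear factor Lef1 and the feedback target Axin2 completed the set. All 10 were found among the 54752 genes of the deposited count table, 1 row each. The cells were NIH/3T3, an established mouse embryonic fibroblast line, and total RNA was taken after 72 h. The vehicle group received neither TGF-β1 nor inhibitor and is given as PBS in the labels. The TGF-β1+DMSO group received TGF-β1 at 1 ng/ml with DMSO, the solvent of the inhibitor. The TGF-β1+BI6727 group received TGF-β1 at 1 ng/ml with BI6727, an inhibitor of the mitotic kinase PLK1, at 5 μM. Each group had 2 libraries. There was no library of cells given DMSO alone, so TGF-β1 and DMSO cannot be told apart against vehicle, and all values come from 1 cell line.

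Wnt proteins are secreted lipid-modified glycoproteins that bind Frizzled receptors. With the co-receptors Lrp5 and Lrp6, some of them stop the destruction of β-catenin, which then enters the nucleus and binds Lef1 and the related Tcf factors at target genes such as Axin2. Others, Wnt5a and Wnt11 among them, are best known for signalling without β-catenin, through Ror receptors, planar polarity proteins and calcium. Secreted frizzled-related proteins (Sfrp) bind Wnt outside the cell, and Dickkopf proteins (Dkk) such as Dkk2 bind the Lrp co-receptors; Dkk3 is the divergent member of that family and its place in Wnt signalling is less settled. TGF-β1 is the standard agent for turning fibroblasts into contractile myofibroblasts, and Wnt signalling is known for its part in fibrosis.

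Total counts per library ranged from 18362378 to 24452153, and 18911 to 19891 genes had a count. A level is given below as normalized CPM, a gene's counts per 1000000 counts of the scaled library total, or as RPKM, the same value per kilobase of exonic length, where genes are compared with each other. A count of 3, taken as the floor of detection, equalled 0.123 to 0.165 CPM, a limit that covers counting error only. Over 14604 genes tested, the log2 difference between the replicates of a group had an SD of 0.447 in vehicle, 0.563 in TGF-β1+DMSO and 0.449 in TGF-β1+BI6727, so the TGF-β1+DMSO libraries were the most unlike each other. A chi-square of replicate counts, set against equal expression at the library totals, was 52.7 per degree of freedom in TGF-β1+DMSO. It was 5.90 in vehicle and 5.09 in TGF-β1+BI6727. The labels do not say that replicates were separate cultures, so the p-values measure the spread between these libraries, which may be technical. By the rule given below, 2.75% of all genes tested were called higher in TGF-β1+DMSO than in vehicle. Of 7 genes taken as a check on the response to TGF-β1, 5 were. Acta2, the smooth muscle actin gene that marks myofibroblasts, was 1 of them (log2 fold change 2.31). The other 2 were not called, Tagln at 1.71 (adjusted p = 0.0637 by edgeR) and Tgfbi at -1.09 (adjusted p = 0.0281). Tagln had only 15 counts over both vehicle libraries. In TGF-β1+BI6727 against vehicle, Tgfbi was called lower (log2 fold change -2.28). The 8 fibroblast markers summed to 7726 to 10324 CPM over the libraries. Of them 1, the collagen-binding proteoglycan Lum, was called lower in TGF-β1+DMSO than in vehicle (log2 fold change -3.15). In TGF-β1+BI6727 against vehicle 2 of these markers were called lower, Lum (-3.60) and the growth factor receptor Pdgfrb (-1.18). Over all genes tested 3.23% were called lower in the first comparison and 3.71% in the second. The 6 epithelial markers summed to at most 2.05 CPM, with Krt18 at 0 in all libraries and Epcam at no more than 1 count. Krt14, the only member tested, was called higher in TGF-β1+DMSO (log2 fold change 3.36), from 7 counts over both vehicle libraries. The 6 leukocyte markers summed to 3.15 to 5.13 CPM. The 6 endothelial markers summed to 4.95 to 7.23 CPM in vehicle, 11.8 to 18.04 CPM in TGF-β1+DMSO and 10.1 to 10.3 CPM in TGF-β1+BI6727, with Kdr and Tie1 at 0 counts in every library. Of the 3 endothelial members tested, none was called in TGF-β1+DMSO against vehicle. Their log2 differences were 3.18 for Cdh5 (adjusted p = 0.0262 by edgeR), 1.89 for Pecam1 (adjusted p = 0.0804) and 1.04 for Vwf (adjusted p = 0.0254). Over both vehicle libraries Cdh5 had 11 counts and Pecam1 9, so the folds of these genes rest on few counts. The part of these differences in the results below was not tested.

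The genes lie on 6 chromosomes of the mm10 build and all are annotated as protein coding. Promoter sequence from RefSeq (GRCm38.p6, the assembly behind mm10) was matched for 6 of the 10 genes, Wnt5b, Wnt11, Sfrp2, Dkk2, Axin2 and Lef1. The 250 bases before the start site are shown for Sfrp2, the gene with the largest difference, for Wnt11, whose counts were found in the TGF-β1 groups and not in vehicle, and for Axin2, the usual transcript read as a measure of β-catenin activity. The Sfrp2 window is chr3:83766071-83766320, the Wnt11 window chr7:98834862-98835111 and the Axin2 window chr11:108920099-108920348, each on the plus strand. Capitals mark a match to a Tcf/Lef word.
Sfrp2: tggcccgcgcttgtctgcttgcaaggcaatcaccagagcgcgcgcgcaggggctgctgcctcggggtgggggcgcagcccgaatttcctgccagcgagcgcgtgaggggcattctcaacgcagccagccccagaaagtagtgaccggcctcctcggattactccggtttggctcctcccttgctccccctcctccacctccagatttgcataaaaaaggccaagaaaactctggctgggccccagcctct
Wnt11: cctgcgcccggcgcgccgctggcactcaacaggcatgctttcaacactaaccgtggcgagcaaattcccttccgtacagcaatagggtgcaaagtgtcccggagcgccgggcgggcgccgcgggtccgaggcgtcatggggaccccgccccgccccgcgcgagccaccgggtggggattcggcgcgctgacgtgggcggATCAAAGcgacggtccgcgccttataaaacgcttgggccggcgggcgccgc
Axin2: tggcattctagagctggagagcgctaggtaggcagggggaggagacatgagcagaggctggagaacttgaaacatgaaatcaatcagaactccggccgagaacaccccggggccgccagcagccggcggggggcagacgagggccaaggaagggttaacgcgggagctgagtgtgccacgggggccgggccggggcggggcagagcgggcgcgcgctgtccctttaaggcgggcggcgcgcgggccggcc
The Tcf/Lef words searched, on both strands, were CTTTG followed by AA, AT, TA or TT, and 14.8% of 32851 promoter windows of this length held at least 1 of them. Of the 12 windows matched for the 6 genes, 3 held a word, 1 each of Wnt11, Wnt5b and Lef1. The Wnt11 window shown held 1, reading ATCAAAG on the plus strand at position -51 from the start site, and the other Wnt11 window, at chr7:98838595-98838844, held none. The Sfrp2 and Axin2 windows held none of these letters. The Smad palindrome GTCTAGAC was in 0.167% of all windows and in none of these 3. A match is a description of the sequence and not a site of binding.

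**Figure D1:**
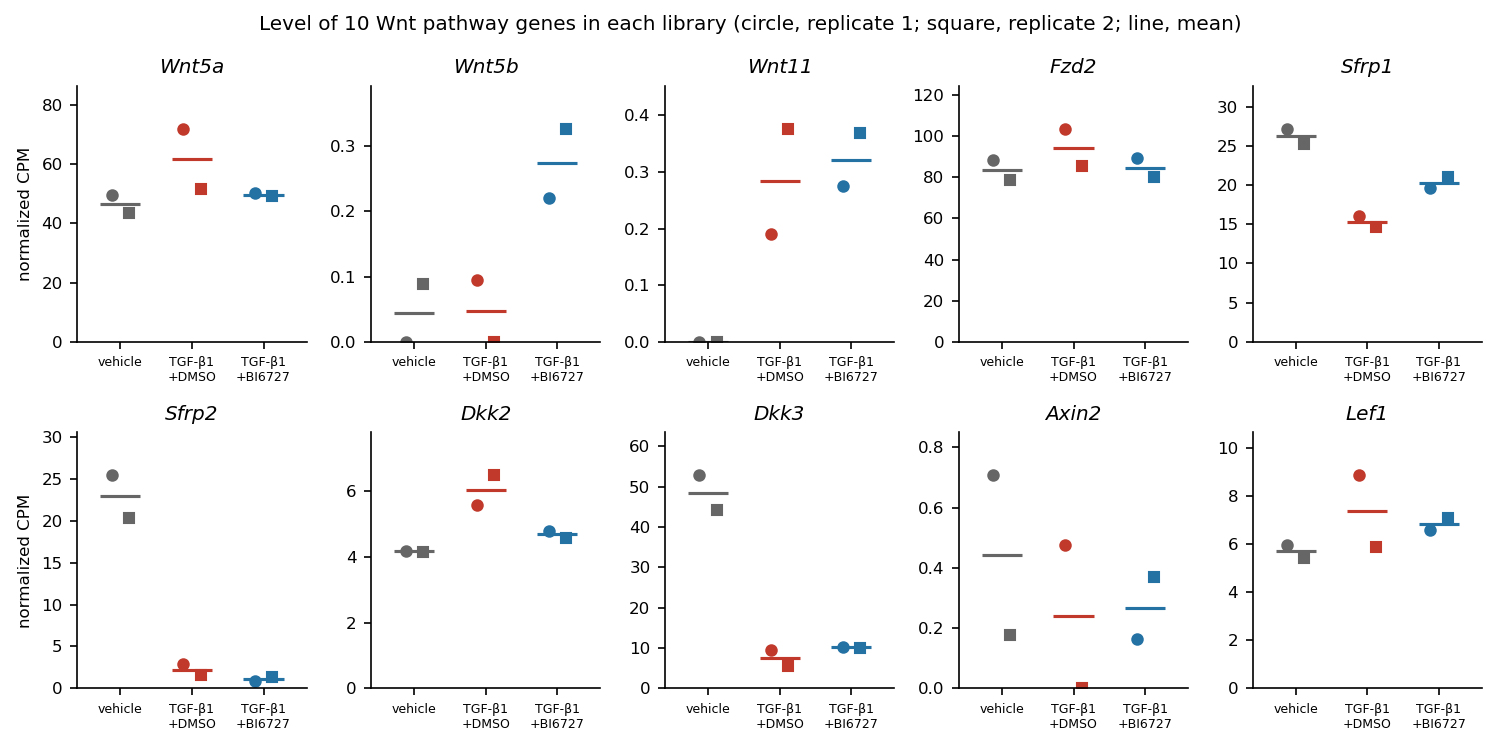
Normalized CPM (y axis, linear from 0, its range set for each gene) of the 10 genes in the 6 libraries, grouped on the x axis as vehicle, TGF-β1+DMSO and TGF-β1+BI6727; circles are replicate 1, squares replicate 2 and lines the mean of 2. The Sfrp2 and Dkk3 points of vehicle stand well above those of both TGF-β1 groups, while Wnt5b, Wnt11 and Axin2 stay under 1 CPM.

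A difference was called where the adjusted p of edgeR's quasi-likelihood test (Benjamini-Hochberg over all 14604 genes) was below 0.01 and the fold change above 2. Of the 10 genes 8 passed the count filter and were tested; Wnt5b and Wnt11 had too few counts. In TGF-β1+DMSO against vehicle, 2 of the 8 were called lower, Sfrp2 and Dkk3, and 0 were called higher. Over all genes tested 3.23% were called lower and 2.75% higher in that comparison. In TGF-β1+BI6727 against vehicle the called genes were again Sfrp2 and Dkk3, both lower, where 3.71% of all genes were called lower and 2.51% higher. In BI6727 against DMSO, both with TGF-β1, 0 of the 8 were called, and 0% of all genes were called in either direction. The 2 comparisons with vehicle share its libraries. In these bulk libraries fewer cells making a transcript and less of it per cell cannot be told apart.

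Sfrp2, which encodes a secreted frizzled-related protein that fibroblasts are known to make, showed the largest differences. Its level was 25.5 and 20.4 CPM in vehicle, 2.91 and 1.55 CPM in TGF-β1+DMSO, and 0.881 and 1.39 CPM in TGF-β1+BI6727, from 504 and 457, 61 and 33, and 16 and 34 counts. The 3 groups did not overlap, with vehicle highest and TGF-β1+BI6727 lowest. The gene fell by 3.36 on the log2 scale in TGF-β1+DMSO against vehicle (SE 0.31, 95% interval -4.06 to -2.66, adjusted p = 0.000177 by edgeR), a 10.3-fold lower level. In TGF-β1+BI6727 against vehicle it fell by 4.30 (SE 0.33, 95% interval -5.06 to -3.54, adjusted p = 7.3e-05), a 19.7-fold lower level. Between the TGF-β1 groups the log2 difference was -0.94 with BI6727 (95% interval -1.79 to -0.08). The unadjusted p of that difference was 0.0350 and the adjusted p 0.667, so it was not called. Sfrp2 lies on chromosome 3 from 83766321 to 83774316, plus strand, and 16.1% of its exonic bases are shared with the annotated gene Gm26771, which had 0 to 21 counts in a library.

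Dkk3, the divergent Dickkopf, was the other gene called. Its level was 52.8 and 44.2 CPM in vehicle, 9.50 and 5.50 CPM in TGF-β1+DMSO, and 10.2 and 10.1 CPM in TGF-β1+BI6727. Both TGF-β1 groups lay far under vehicle and did not overlap with it. Dkk3 fell by 2.69 on the log2 scale in TGF-β1+DMSO against vehicle (SE 0.24, 95% interval -3.24 to -2.14, adjusted p = 0.000156 by edgeR), a 6.46-fold lower level. It fell by 2.26 in TGF-β1+BI6727 against vehicle (SE 0.23, adjusted p = 0.000311), a 4.78-fold lower level. The difference of BI6727 from DMSO was 0.44 (95% interval -0.12 to 0.99, adjusted p = 0.746). Without TGF-β1+DMSO replicate 1, the higher of that pair, it was 0.88, under the fold threshold, and without replicate 2 it was 0.08. Dkk3 lies on chromosome 7 from 112116017 to 112159057, minus strand.

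Sfrp1, a close relative of Sfrp2, differed less. Its level was 27.2 and 25.3 CPM in vehicle, 16.0 and 14.6 CPM in TGF-β1+DMSO, and 19.6 and 21.0 CPM in TGF-β1+BI6727. The 3 groups did not overlap, and TGF-β1+BI6727 lay between the others. The log2 difference of TGF-β1+DMSO from vehicle was -0.78 (SE 0.14, 95% interval -1.10 to -0.46), a 1.71-fold lower level. Its adjusted p of 0.00565 passed the p threshold, but the fold was under 2, so the gene was not called. BI6727 against DMSO gave a log2 difference of 0.41 (95% interval 0.09 to 0.73), with an unadjusted p of 0.0181 and an adjusted p of 0.644. TGF-β1+BI6727 against vehicle gave -0.37 with an adjusted p of 0.0922. Sfrp1 lies on chromosome 8 from 23411502 to 23449632, plus strand.

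Dkk2, a Dickkopf that binds the Lrp co-receptors, was the lowest of the 4 antagonists in vehicle. Its level was 4.20 and 4.15 CPM in vehicle, 5.58 and 6.49 CPM in TGF-β1+DMSO, and 4.79 and 4.58 CPM in TGF-β1+BI6727. The order of the groups was the reverse of that of Sfrp1, with TGF-β1+DMSO highest. The log2 difference of TGF-β1+DMSO from vehicle was 0.53 (SE 0.21, 95% interval 0.05 to 1.02) and did not pass (adjusted p = 0.112). BI6727 against DMSO gave -0.37 (adjusted p = 0.752) and TGF-β1+BI6727 against vehicle 0.17 (adjusted p = 0.628). Dkk2 lies on chromosome 3 from 132085292 to 132180304, plus strand.

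**Figure D2:**
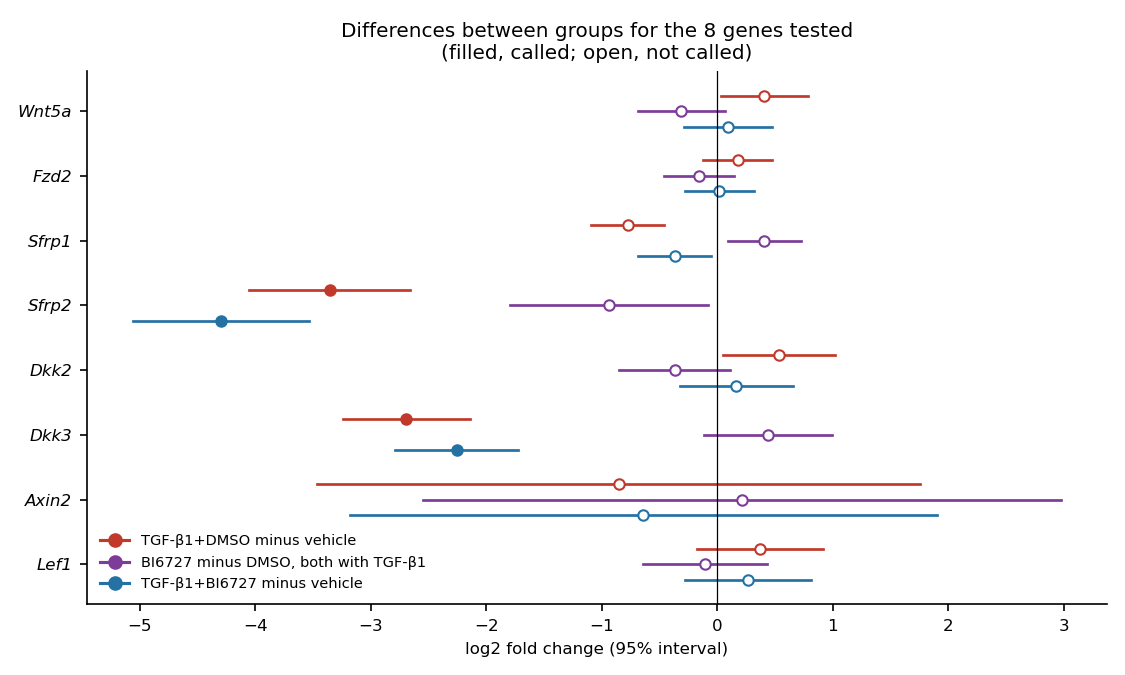
Log2 fold change (x axis) with its 95% interval (line) for the 8 genes tested, in the 3 comparisons by colour; filled points were called at an adjusted p below 0.01 and a fold above 2, and open points were not. Sfrp2 and Dkk3 are filled in both comparisons with vehicle, at -3.36 and -2.69 for TGF-β1+DMSO, and the Axin2 intervals are the widest.

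Of the ligands, Wnt5a was the only member of the 3 with a level above the floor in all libraries. Its level was 49.7 and 43.5 CPM in vehicle, 71.9 and 51.5 CPM in TGF-β1+DMSO, and 50.2 and 49.1 CPM in TGF-β1+BI6727. Replicate 1 of TGF-β1+DMSO stood above the other 5 libraries, whose levels lay close together. The log2 difference of TGF-β1+DMSO from vehicle was 0.41 (SE 0.17, 95% interval 0.03 to 0.78) and did not pass (adjusted p = 0.117). Without TGF-β1+DMSO replicate 2 it was 0.64, still under the fold threshold, and without replicate 1 it was 0.15. BI6727 against DMSO gave -0.31 (adjusted p = 0.731), and TGF-β1+BI6727 against vehicle 0.09 (adjusted p = 0.732). In replicate 2 of TGF-β1+DMSO, genes as long as Wnt5a were shifted by -0.18 on the log2 scale, and with such length trends removed the difference from vehicle was 0.53 (adjusted p = 0.00617, under the fold threshold). Wnt5a lies on chromosome 14 from 28504750 to 28527448, plus strand.

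Wnt11, a ligand known from cell movement in the embryo, had 0 counts in both vehicle libraries, 4 and 8 counts in TGF-β1+DMSO, and 5 and 9 counts in TGF-β1+BI6727. All 4 libraries with TGF-β1 thus had more than the floor of 3 counts and both vehicle libraries had none. With the vehicle libraries set at the floor, the mean level was 1.99 times that floor in TGF-β1+DMSO and 2.25 times in TGF-β1+BI6727. Counting error is left out of these ratios. In a fit that kept every gene with 10 counts in total, the adjusted p was 0.0649 for TGF-β1+DMSO and 0.0541 for TGF-β1+BI6727 against vehicle, and neither was called. Wnt11 lies on chromosome 7 from 98835112 to 98855195, plus strand, and shares 8.80% of its exonic bases with Gm8398, which had 0 counts throughout.

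Wnt5b, the close relative of Wnt5a, had 0 and 2 counts in vehicle, 2 and 0 in TGF-β1+DMSO, and 4 and 8 in TGF-β1+BI6727. Only the last pair exceeded the floor of 3 counts. In the fit that kept genes with 10 counts in total, the log2 difference of BI6727 from DMSO was 2.40 (unadjusted p = 0.133, adjusted p = 0.811 by edgeR) and that of TGF-β1+BI6727 from vehicle 2.42 (adjusted p = 0.303). At this depth a difference in Wnt5b was not detectable. The gene lies on chromosome 6 from 119432531 to 119544347, minus strand.

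Fzd2, a Frizzled receptor known to bind Wnt5a, had the highest level per length of the 10 genes in every group. It stood at 88.6 and 78.7 CPM in vehicle, 103.7 and 85.3 CPM in TGF-β1+DMSO, and 89.2 and 80.2 CPM in TGF-β1+BI6727. The ranges of the 3 groups overlapped. The log2 differences were 0.18 for TGF-β1+DMSO against vehicle (95% interval -0.12 to 0.48, adjusted p = 0.375), -0.16 for BI6727 against DMSO (adjusted p = 0.845) and 0.02 for TGF-β1+BI6727 against vehicle (adjusted p = 0.942). The gene has 1 exon and lies on chromosome 11 from 102604396 to 102608058, plus strand.

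Lef1, the nuclear factor, had 5.96 and 5.44 CPM in vehicle, 8.88 and 5.88 CPM in TGF-β1+DMSO, and 6.61 and 7.07 CPM in TGF-β1+BI6727. As with Wnt5a, replicate 1 of TGF-β1+DMSO was the highest library, and replicate 2 lay within the vehicle range. The log2 difference of TGF-β1+DMSO from vehicle was 0.37 (95% interval -0.17 to 0.92, adjusted p = 0.300), and BI6727 against DMSO gave -0.11 (adjusted p = 0.939). TGF-β1+BI6727 against vehicle gave 0.26 (adjusted p = 0.473), although those groups did not overlap. In replicate 2 of TGF-β1+DMSO, genes as long as Lef1 were shifted by -0.22 on the log2 scale. With such length trends removed, the difference of TGF-β1+DMSO from vehicle was 0.51 (adjusted p = 0.0880 by edgeR). Lef1 lies on chromosome 3 from 131110471 to 131224356, plus strand, with 13.7% of its exonic bases shared with Gm43352, a gene with 2 to 7 counts per library.

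Axin2, the feedback inhibitor that β-catenin induces, was near the floor. It had 14 and 4 counts in vehicle, 10 and 0 in TGF-β1+DMSO, and 3 and 9 in TGF-β1+BI6727. Replicates of a group differed more than the groups did. The log2 difference of TGF-β1+DMSO from vehicle was -0.85 with a 95% interval of -3.46 to 1.75 (adjusted p = 0.632), and without vehicle replicate 1 its sign changed, to 0.40. At this depth neither a rise nor a fall of Axin2 was detectable. The gene lies on chromosome 11 from 108920349 to 108950783, plus strand.

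Of the 8 tested genes, 5 had groups that did not overlap in each comparison. These were Wnt5a, Sfrp1, Sfrp2, Dkk2 and Dkk3 in the first, the same genes in BI6727 against DMSO, and Sfrp1, Sfrp2, Dkk2, Dkk3 and Lef1 in TGF-β1+BI6727 against vehicle. Over the whole table of tested genes, the share without overlap was 60.5%, 35.1% and 71.6%.

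Per length of transcript, the order of the 10 genes in vehicle was led by Fzd2 with a mean of 22.8 RPKM, Dkk3 with 14.4 RPKM and Sfrp2 with 10.7 RPKM. Sfrp1 at 6.003 RPKM and Wnt5a at 5.95 RPKM followed and did not differ beyond their spread. Dkk2 had 1.13 RPKM and Lef1 0.649 RPKM, and the other 3 were under 0.1 RPKM. In TGF-β1+DMSO the order was Fzd2 at 25.8 RPKM, Wnt5a at 7.89 RPKM, Sfrp1 at 3.50 RPKM, Dkk3 at 2.23 RPKM, Dkk2 at 1.63 RPKM and Sfrp2 at 1.04 RPKM. Both libraries placed Wnt5a above the 4 antagonists there, while the ranges of Dkk3 and Dkk2 overlapped, as did those of Sfrp2 and Lef1. In TGF-β1+BI6727 it was Fzd2 at 23.1 RPKM, Wnt5a at 6.35 RPKM, Sfrp1 at 4.65 RPKM, Dkk3 at 3.02 RPKM, Dkk2 at 1.26 RPKM, Lef1 at 0.778 RPKM and Sfrp2 at 0.527 RPKM.

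To set the members among the rest of the pathway, 105 genes were placed in 9 lists by their role, and 68 of them were tested. In TGF-β1+DMSO against vehicle, 3 of the 68 were called higher and 4 lower, where 2.75% and 3.23% of all genes tested were, and the median log2 difference was -0.06 beside -0.01 over all genes tested. In TGF-β1+BI6727 against vehicle, 2 were called higher and 4 lower, where 2.51% and 3.71% of all genes tested were. In BI6727 against DMSO none of the 68 was called by edgeR. Over all genes that comparison had 1041 genes at an unadjusted p under 0.05, a lowest adjusted p of 0.0227, and 0 higher and 15 lower calls by DESeq2. None of those DESeq2 calls was in the Wnt lists. Fits without a TGF-β1+DMSO library are not counted here. They leave the most unlike pair with 1 library, so its spread is taken from the other groups.

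Of 19 Wnt ligand genes, 17 had at most 20 counts in every library, and only Wnt5a and Wnt9a had more. Of the 4 tested, 1 was called higher in TGF-β1+DMSO than in vehicle. That gene was Wnt9a, a ligand known from joint formation, with 98 and 94 counts in vehicle, 610 and 505 in TGF-β1+DMSO, and 372 and 548 in TGF-β1+BI6727. Every library with TGF-β1 stood far above both vehicle libraries. Wnt9a rose by 2.53 on the log2 scale in TGF-β1+DMSO (SE 0.18, 95% interval 2.12 to 2.95, adjusted p = 5.36e-05 by edgeR), a 5.78-fold higher level, and by 2.23 in TGF-β1+BI6727 (adjusted p = 9.32e-05). BI6727 against DMSO gave -0.30 (adjusted p = 0.738). Wnt9a lies on chromosome 11 from 59306928 to 59333552, plus strand. Wnt1, named here after its values were seen, had 0 counts in both vehicle libraries, 10 and 6 in TGF-β1+DMSO, and 10 and 12 in TGF-β1+BI6727. With vehicle set at the floor of 3 counts, its mean level was 2.66 times that floor in TGF-β1+DMSO and 3.65 times in TGF-β1+BI6727, counting error left out. Its adjusted p of 0.0239 and 0.0142 by edgeR did not pass. Both genes of Wnt secretion were tested and neither was called, the carrier Wls having a mean of 34.5 RPKM in vehicle.

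The make-up of the ligand pool followed from these levels. In vehicle, the 19 ligand genes summed to 8.01 and 7.10 RPKM, of which Wnt5a made up 79.3% and 78.2% and Wnt9a 18.6% and 17.7%. In TGF-β1+DMSO they summed to 18.6 and 14.1 RPKM, with Wnt5a at 49.5% and 46.6% and Wnt9a at 47.1% and 50.5%. In TGF-β1+BI6727 they summed to 13.4 and 13.8 RPKM, with Wnt5a at 47.7% and 45.7% and Wnt9a at 45.8% and 48.9%. The share of Wnt5a was lower in all 4 libraries with TGF-β1 than in either vehicle library, while its own level was not.

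Of 13 secreted antagonist genes, the 4 members were the only ones tested; the other 9 had at most 20 counts in every library. The 13 summed to 34.9 and 29.6 RPKM in vehicle, 9.49 and 7.65 RPKM in TGF-β1+DMSO, and 9.43 and 9.78 RPKM in TGF-β1+BI6727. Dkk3 made up 45.0% and 44.5% of the vehicle sum, Sfrp2 33.9% and 32.0%, and Sfrp1 17.8% and 19.6%. In TGF-β1+DMSO, Sfrp1 was the largest part at 38.5% and 43.7%, Sfrp2 was down to 14.2% and 9.43%, and Dkk2 was at 15.9% and 22.9% from 3.24% and 3.79% in vehicle. In TGF-β1+BI6727, Sfrp1 made up 47.6% and 49.1% and Sfrp2 4.34% and 6.599%. The ratio of Sfrp1 to Sfrp2 per length was 0.526 and 0.611 in vehicle, 2.70 and 4.64 in TGF-β1+DMSO, and 10.96 and 7.44 in TGF-β1+BI6727. The ratio of the antagonist sum to the ligand sum was 4.36 and 4.16 in vehicle, 0.511 and 0.541 in TGF-β1+DMSO, and 0.702 and 0.711 in TGF-β1+BI6727. The antagonist sum includes Dkk3, whose place in Wnt signalling is less settled. These sums and ratios are descriptions of transcript levels and were not tested.

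**Figure D3:**
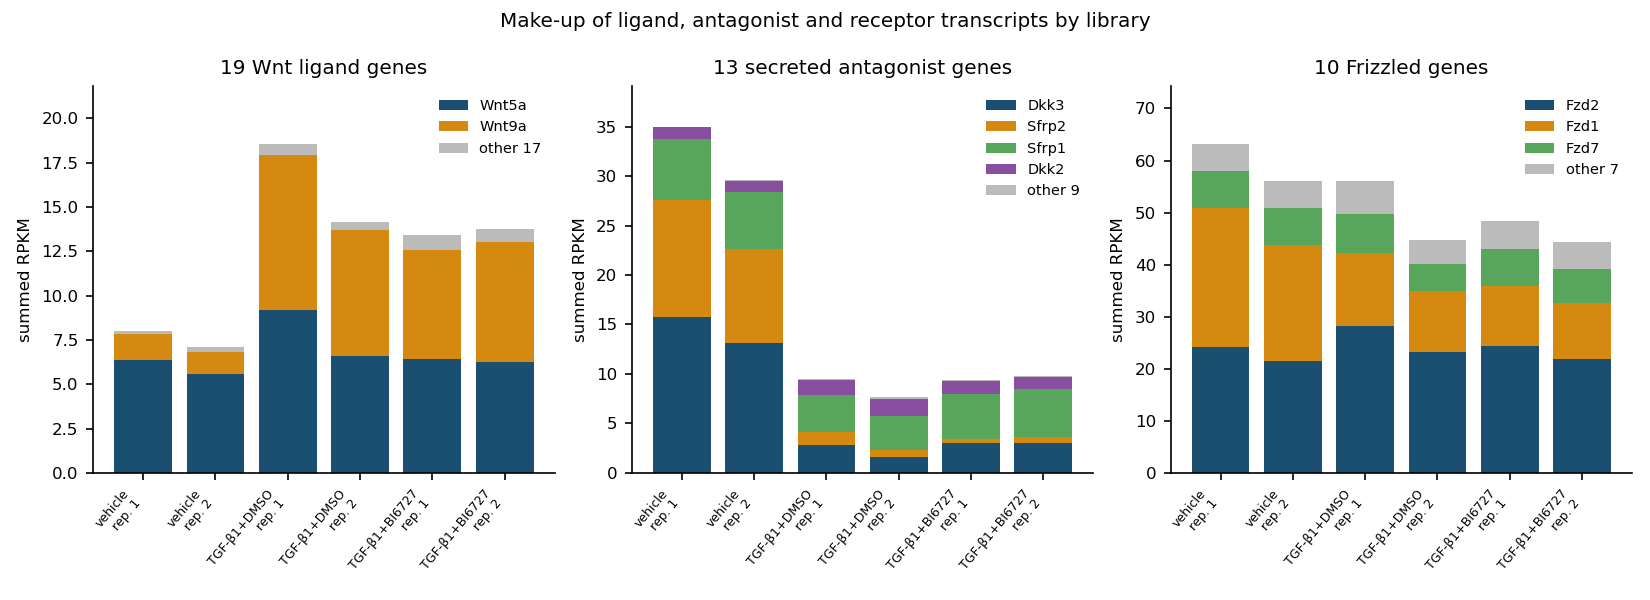
Summed RPKM (y axis, from 0) of 19 Wnt ligand, 13 secreted antagonist and 10 Frizzled genes in each of the 6 libraries (bars), split by gene (colours). The ligand bars are higher and the antagonist bars lower in all 4 libraries with TGF-β1 than in the 2 vehicle libraries, and the Fzd1 part of the Frizzled bar is smaller.

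Of 16 receptor genes 14 were tested, and 0 were called in TGF-β1+DMSO against vehicle. Fzd1, a Frizzled of the same subgroup as Fzd2, came nearest, with 2214 and 2089 counts in vehicle, 1223 and 1040 in TGF-β1+DMSO, and 875 and 1094 in TGF-β1+BI6727. Its log2 difference from vehicle was -0.93 in TGF-β1+DMSO (adjusted p = 0.00228, a 1.91-fold lower level). In TGF-β1+BI6727 it fell by 1.14 (SE 0.14, adjusted p = 0.000778 by edgeR), past the fold threshold. That call was lost without vehicle replicate 1 (adjusted p = 0.0196), without TGF-β1+BI6727 replicate 1 (0.0136) and without its replicate 2 (0.0196). Without TGF-β1+DMSO replicate 1, the log2 difference of the first comparison was -1.06, past the fold threshold. The ratio of Fzd2 to Fzd1 per length was 0.907 and 0.968 in vehicle, 2.03 and 2.00 in TGF-β1+DMSO, and 2.12 and 2.05 in TGF-β1+BI6727. Fzd2 made up 38.3% of the Frizzled sum in both vehicle libraries and 49.4% to 52.1% in the 4 libraries with TGF-β1. The level of Fzd2 itself was not called different in any comparison. The receptor kinase Ryk, the highest of the list per length, had a log2 difference of -0.47 in TGF-β1+DMSO (adjusted p = 0.0188) and of -0.60 in TGF-β1+BI6727 (adjusted p = 0.00627), both under the fold threshold.

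Of the 9 genes of the R-spondin module, which acts on the amount of Frizzled at the cell surface, 4 were tested. These were Lgr4, Lgr6, Rnf43 and Znrf3. The other 5, the R-spondins Rspo1 to Rspo4 and the receptor Lgr5, had at most 20 counts in every library. Rspo3 and Rspo4 had 0 counts throughout. Lgr6, an R-spondin receptor, was called higher in both comparisons with vehicle, with 76 and 109 counts in vehicle, 474 and 352 in TGF-β1+DMSO, and 304 and 483 in TGF-β1+BI6727. It rose by 2.16 on the log2 scale in TGF-β1+DMSO (adjusted p = 0.000325 by edgeR) and by 2.06 in TGF-β1+BI6727 (adjusted p = 0.00038). Without vehicle replicate 1, the adjusted p was 0.0114 and 0.0127, and the calls were lost. Its relative Lgr4, which had the highest level of that list, had a log2 difference of 0.39 in TGF-β1+DMSO (adjusted p = 0.166).

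All 14 cytoplasmic transducers were tested and none was called in any of the 3 comparisons. Ctnnb1, which encodes β-catenin, was the most abundant of them, with a mean of 121.8 RPKM in vehicle, 131.5 RPKM in TGF-β1+DMSO and 147.6 RPKM in TGF-β1+BI6727, and its log2 difference of TGF-β1+DMSO from vehicle was 0.11 (adjusted p = 0.587). Ctnnb1 shares 15.1% of its exonic bases with the annotated genes Mir7090 and Ulk4. Of 13 Tcf/Lef factors and cofactors 12 were tested, Lef1 among them. Tle2, a Groucho-type corepressor, fell by 1.26 in TGF-β1+DMSO (adjusted p = 0.00544 by edgeR) and had a log2 difference of -0.97 in TGF-β1+BI6727 (adjusted p = 0.0155). Its call was lost without vehicle replicate 1 (adjusted p = 0.0711) or 2 (adjusted p = 0.0163), without either TGF-β1+BI6727 library (0.0141 and 0.0138), and in a fit of the 2 groups alone (0.0164). Pygo2, the highest of that list per length, had a log2 difference of 0.16 (adjusted p = 0.302).

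Of 16 target genes of β-catenin, 8 were tested, and 9 had at most 20 counts in every library. Ccn4, a matricellular protein gene, had 629 and 607 counts in vehicle, 1827 and 1155 in TGF-β1+DMSO, and 809 and 1126 in TGF-β1+BI6727. It rose by 1.27 in TGF-β1+DMSO against vehicle (SE 0.21, adjusted p = 0.00392 by edgeR), and replicate 1 of TGF-β1+DMSO stood above all other libraries. The fold was under 2 without that library (log2 difference 0.89), and the adjusted p was 0.0439 and 0.0644 without vehicle replicate 1 or 2, 0.0117 and 0.0116 without TGF-β1+BI6727 replicate 1 or 2, and 0.0120 in a fit of the 2 groups alone. BI6727 against DMSO gave -0.64 (unadjusted p = 0.0132, adjusted p = 0.585). Ccnd1, which encodes cyclin D1, was the highest of the list. Its log2 difference from vehicle was 0.58 in TGF-β1+DMSO (adjusted p = 0.0252 by edgeR) and 0.96 in TGF-β1+BI6727 (adjusted p = 0.00251), both under the fold threshold. Without vehicle replicate 2 the second was 1.19, above the fold threshold. Ccnd1 shares 23.4% of its exonic bases with the annotated gene LTO1.

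Of 10 planar polarity genes 9 were tested. Daam2, which encodes a formin that binds Dishevelled, fell by 1.25 in TGF-β1+DMSO (adjusted p = 0.00223 by edgeR) and by 1.15 in TGF-β1+BI6727 (adjusted p = 0.00309), from 1096 and 1221 counts in vehicle to 580 and 393 and to 470 and 578. The adjusted p for TGF-β1+DMSO was 0.0354 and 0.0287 without vehicle replicate 1 or 2, and without TGF-β1+DMSO replicate 2 its log2 difference was -0.98, under the fold threshold. For TGF-β1+BI6727 it was 0.0427 and 0.0373 without vehicle replicate 1 or 2, and 0.0327 and 0.0464 without TGF-β1+BI6727 replicate 1 or 2. Scrib, the highest of that list, had a log2 difference of -0.08 (adjusted p = 0.668). Wnt9a, Sfrp2 and Dkk3 kept their calls in both comparisons with vehicle whichever library was left out.

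**Figure D4:**
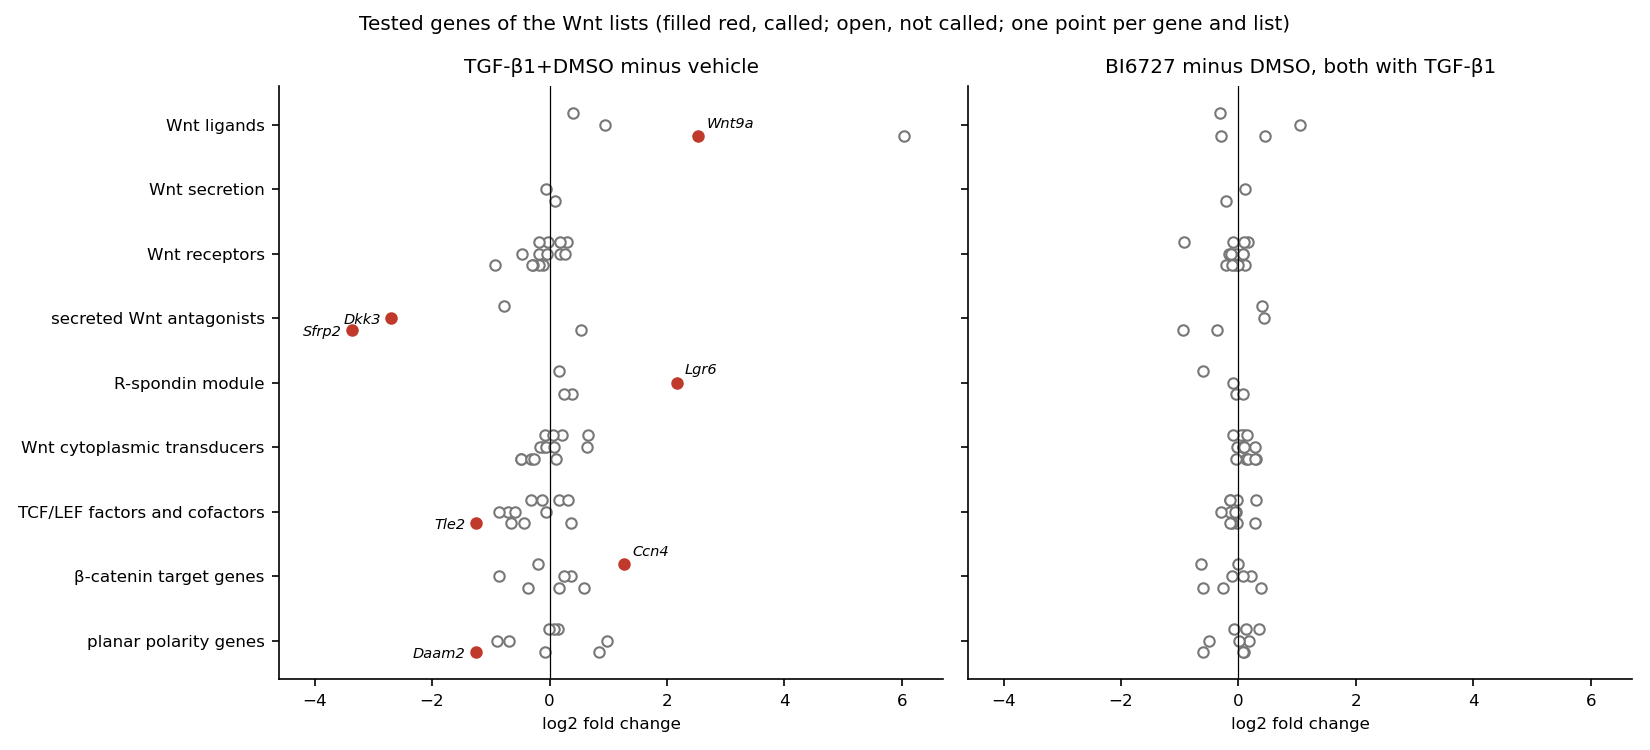
Log2 fold change (x axis) of the 68 tested genes of the 9 Wnt lists (y axis), for TGF-β1+DMSO minus vehicle (left) and BI6727 minus DMSO with TGF-β1 in both (right); red points were called and are named, open points were not, and a gene in more than 1 list is drawn in each. The left panel has 3 red points to the right of 0 and 4 to the left, the right panel has none, and the ligand at 6.03 is Wnt1, whose vehicle libraries had 0 counts, so that its position is no measured fold.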

How the data were processed

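RNA from 6 NIH/3T3 libraries was sequenced on a BGISEQ-500 as single-end reads. The authors aligned reads to mm10 with Subjunc and counted them per gene of Gencode M20 with featureCounts; the submitters' notes give Subread 1.6.4. The deposited values are raw counts, 18362378 to 24452153 per library; whether strand was used is not given in the sources used here, so overlapping antisense genes cannot be separated. Genes were kept by filterByExpr (14604 of 54752), scaled by TMM and tested with edgeR 4.0.16 (R 4.3.3), quasi-likelihood, 3 group means, 3 residual degrees of freedom. A call needed an adjusted p below 0.01 and a fold above 2. The filter of the study, 10 CPM in more than 3 libraries, was an alternative, since it drops genes expressed in 1 group. Named were the 10 genes, any gene of the Wnt lists that was called, and the highest per length in each list; Wnt1 was named after its values were seen. The genes and lists were chosen with earlier results of these data known. Other alternatives were DESeq2 1.42.0, its size factors, a filter of 10 counts in total, fits of 2 groups, a replicate block, a looser threshold, removal of gene length trends and leaving out each library; the crossed block and halved counts were added after seeing the data. The script was tested on simulated data.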

Additional observations from a re-analysis of the deposited data

How the results depend on the processing

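The calls of Sfrp2 and Dkk3, the 2 genes called lower in both comparisons with vehicle, were kept in each alternative that tested them; with the filter of the study Sfrp2 was dropped and 1 call remained in each. In BI6727 against DMSO 0 of the 10 genes were called under any alternative run. Of the pathway lists, 7 genes were higher and 10 lower in TGF-β1+DMSO against vehicle at an adjusted p below 0.05 with no fold minimum, against 3 and 4, and 8 and 11 in TGF-β1+BI6727 against vehicle, against 2 and 4. At that threshold 9.87% of all genes were higher and 11.02% lower in the first comparison, and 9.98% and 12.04% in the second, so the list counts lay near the background. Leaving out 1 library gave 1 to 3 higher and 2 to 9 lower in the first and 1 to 3 and 2 to 5 in the second; where a group was left with 1 library, that library is assumed to vary like the others.

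With the length trends removed, the log2 difference from vehicle changed sign for Wls (0.10) and Scrib (0.0185) in TGF-β1+DMSO and for Scrib (0.0487) in TGF-β1+BI6727. Signs also changed when 1 library was left out. In TGF-β1+DMSO against vehicle the values then ran from -6.22 to 0.40 for Axin2, -0.147 to 0.0507 for Wls, -0.0717 to 0.29 for Ctnnb1 and -0.19 to 0.0426 for Scrib. In BI6727 against DMSO they ran from -0.79 to 5.58 for Axin2, -0.39 to 0.22 for Lef1, -0.26 to 0.20 for Lgr4, -0.32 to 0.14 for Lgr6, -0.011 to 0.35 for Ctnnb1, -0.0467 to 0.19 for Scrib and -0.18 to 0.42 for Daam2. In TGF-β1+BI6727 against vehicle they ran from -0.0017 to 0.19 for Wnt5a, -0.0651 to 0.11 for Fzd2, -1.37 to 0.61 for Axin2 and -0.0632 to 0.0576 for Scrib. None of these genes was called in the comparison named. The -6.22 and 5.58 of Axin2 came without TGF-β1+DMSO replicate 1. The library left in that group had 0 Axin2 counts, so neither value is a measured fold. Deviations of same-numbered libraries were close to uncorrelated (r -0.037, -0.00787 and -0.0585). The labels do not say whether those libraries were handled together. A replicate block left the 2 lower calls as they were and gave 370 higher and 440 lower calls over all genes in TGF-β1+DMSO against vehicle, against 402 and 472. With the numbers of TGF-β1+DMSO exchanged in the block there were 410 and 492. Halved counts gave 406 and 492. No cause of these shifts was tested.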

Other observations

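Low counts in the deposited table were even more often than odd. Among gene counts from 1 to 20, 58.5% to 59.9% were even in the 6 libraries, whereas among counts from 100 to 1000 the share was 49.9% to 50.9%. More genes had 2 counts than 1 count in every library, as with 1495 against 1037 genes in vehicle replicate 1. The cause was not tested. The floor of 3 counts, and the ratios to it given for Wnt11 and Wnt1, take each count as 1 read. Halving all counts, an alternative added after seeing the data, left Sfrp2 at -3.32 on the log2 scale in TGF-β1+DMSO against vehicle (adjusted p = 0.00014 by edgeR).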
